A study of Mus musculus with 2 samples.

Results

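The cells described are 576 lung macrophages that carried high transcript counts of Mgl2, of Retnla or of both together with complement C1q. A cell was taken when it had at least 10 unique molecular identifiers (UMIs, each standing for 1 captured transcript) of Retnla and Mgl2 together and at least 3 of C1qa, C1qb and C1qc together. It also had to hold fewer than 8 UMIs of Cd163, Folr2, Lyve1, Cd209f and Cd209g together, the genes of Lyve1 macrophages, and fewer than 3 of Cd209a and Ccl17 together, genes of dendritic cells. These cells are called members below, and they made up 12.6% of the 4570 cells kept (95% Clopper-Pearson interval 11.7 to 13.6%). Members were thus chosen by the UMIs of those 12 genes, whose values are given as a description.

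The Tgfbr2-KO group came from IM-DTR hosts (CD45.1+CD45.2+) that were irradiated and given LyzM-Cre Tgfbr2 fl/fl bone marrow, and the control group from the same kind of host given Tgfbr2 fl/fl bone marrow. LyzM-Cre acts in the myeloid lineage as a whole, so the loss of Tgfbr2, the type II receptor for TGF-beta, is not limited to macrophages. All hosts in both groups received 50 ng of diphtheria toxin 10 days before sacrifice. Donor-derived lung cells were sorted as CD45.2+ and CD45.1-, negative for Ly6G and SiglecF, positive for CD11b and CD64 and low in side scatter, 5 mice were pooled for each genotype, and each pool was marked with a hashtag antibody before a shared droplet-based 3′ single-cell library was made. The mice of a pool cannot be told apart, so there is 1 pool per genotype, no replicate and no significance test. Intervals given below cover counting error only.

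Of the kept cells, 2674 belonged to the Tgfbr2-KO pool and 1896 to the control pool, with median depths of 10278 and 7785 UMIs per cell. Tgfbr2-KO members had a median of 10331 UMIs and 2663 detected genes, and control members of 8811 UMIs and 2364 detected genes. No cell barcode occurred more than once, and mitochondrial transcripts made up a median of 2.29% of UMIs in Tgfbr2-KO members and 2.38% in control members. Levels below are UMIs per 1000000 gene UMIs (UPM) of the summed cells. Tgfbr2 itself had 199 UPM in Tgfbr2-KO members and 209 UPM in control members, but 3′ tags count the end of a transcript and do not check a deletion elsewhere in the gene.

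Alternative activation is the response of macrophages to interleukin-4 and interleukin-13, which signal through Il4ra and the transcription factor STAT6. Its best known products in the mouse include Retnla (RELM-alpha, a small secreted protein), the galactose-binding lectin Mgl2 (CD301b), the mannose receptor Mrc1 (CD206), Chil3 and Arg1. In the lung, interstitial macrophages are commonly divided into a Lyve1 Folr2 kind that lies near vessels and a CD206-low kind with high antigen-presentation genes, and both can be renewed from blood monocytes.

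The promoters of the transcripts that the results below turn on are shown because Retnla is a known STAT6 target and because Ear2, an eosinophil-associated ribonuclease, followed Retnla among the members. Each run holds the 250 bases before the annotated start, taken from RefSeq (build GRCm38.p6, + strand), and capitals mark any match to TTC, 4 bases of any kind and GAA, a spacing bound by STAT6 that reads the same on both strands.
Retnla (chr16:48842359-48842608): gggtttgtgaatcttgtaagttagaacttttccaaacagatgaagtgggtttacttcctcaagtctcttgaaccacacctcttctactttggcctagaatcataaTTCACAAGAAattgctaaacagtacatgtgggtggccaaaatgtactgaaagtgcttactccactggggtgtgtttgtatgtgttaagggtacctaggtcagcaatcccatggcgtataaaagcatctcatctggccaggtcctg
Mgl2 (chr11:70130107-70130356): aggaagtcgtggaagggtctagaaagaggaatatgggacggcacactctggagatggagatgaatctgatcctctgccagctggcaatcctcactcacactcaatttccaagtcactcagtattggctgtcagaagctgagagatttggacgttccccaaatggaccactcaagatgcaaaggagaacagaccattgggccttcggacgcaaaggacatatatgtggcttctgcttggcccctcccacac
Ear2 (chr14:44102404-44102653): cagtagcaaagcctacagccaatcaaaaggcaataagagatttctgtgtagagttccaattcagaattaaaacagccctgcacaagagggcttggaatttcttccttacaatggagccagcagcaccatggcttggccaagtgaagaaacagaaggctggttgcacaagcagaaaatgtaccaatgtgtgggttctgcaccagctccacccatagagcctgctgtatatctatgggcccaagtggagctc
The Retnla window held 1 match, from 145 to 136 bases before the start, while the Mgl2 and Ear2 windows held 0. Across all 32851 promoters of the same length, 1923 (5.854%) held at least 1 match. A match is a run of letters and was not tested as a binding site.

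The rule was meant to take alternatively activated macrophages high in both Retnla and Mgl2. Checked against that name, the population was mainly an Mgl2-high one, and most of its cells carried no Retnla. Of the 576 members, 433 (75.2%, interval 71.4 to 78.7%) had no Retnla UMI, made up of 319 Tgfbr2-KO and 114 control cells. In contrast 541 members (93.9%) had at least 10 UMIs of Mgl2, 411 in the Tgfbr2-KO pool and 130 in the control pool. Arg1, the arginase of the alternatively activated state, had no UMI in any member, and Chil3, a chitinase-like protein of the same state, had 15 UMIs in 6 Tgfbr2-KO members and none in control members. A count of 0 allows up to 0.570 UPM in Tgfbr2-KO members and 2.14 UPM in control members. The cells are therefore called Mgl2-high C1q+ macrophages here, and the term alternatively activated is not used for them.

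Retnla was concentrated in a small number of members with very high counts. Among members with a Retnla UMI, the median was 35 UMIs per cell in the Tgfbr2-KO pool and 25 in the control pool, and the highest cell had 1238 UMIs in the Tgfbr2-KO pool and 442 in the control pool. The 5 highest cells held 24.5% of all Retnla UMIs of Tgfbr2-KO members and 69.4% of those of control members. Mgl2 was spread evenly by comparison: its 5 highest cells held 5.16% of the UMIs of Tgfbr2-KO members and 7.89% of those of control members. The rule set part of this contrast, because a member with no Retnla UMI had to carry at least 10 UMIs of Mgl2. Mgl2 had a median of 17 UMIs per member and a maximum of 134 in the Tgfbr2-KO pool, against a median of 13 and a maximum of 36 in the control pool.

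**Figure D1:**
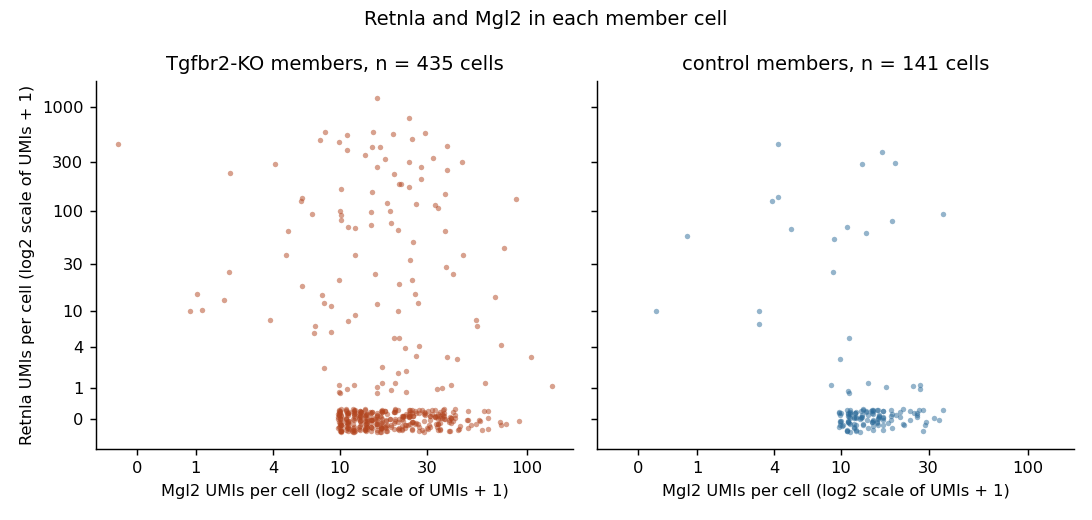
UMIs of Mgl2 (horizontal) and Retnla (vertical) in each member, on log2 scales of UMIs + 1 with slight jitter, for 435 Tgfbr2-KO members (left) and 141 control members (right). Most points of both panels lie along the bottom at 0 Retnla and at 10 or more Mgl2 UMIs, and the cells with at least 100 Retnla UMIs number 42 in the Tgfbr2-KO pool and 6 in the control pool.

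By the rule's pair of genes, 107 members bore Retnla (at least 5 UMIs). They were 89 of the 435 Tgfbr2-KO members, or 20.5%, and 18 of the 141 control members, or 12.8%. Nearly all the rest of the rule's signal came from Mgl2: 346 Tgfbr2-KO and 123 control members met the limit with fewer than 5 Retnla UMIs. Only 9 Tgfbr2-KO and 7 control members met it with fewer than 5 Mgl2 UMIs. Any Retnla UMI at all was found in 26.7% of Tgfbr2-KO members (interval 22.6 to 31.1%) and 19.1% of control members (13.01 to 26.6%). In monocyte-like cells, with under 3 UMIs of C1q and at least 5 of Ly6c2 and Plac8, which should lack Retnla and served as the background, the share was 5.26% of 247 Tgfbr2-KO cells and 3.03% of 33 control cells, at median depths of 11064 and 9055 UMIs.

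The limits cut through continuous ranges. Just inside the limit of 10 UMIs, with 10 or 11 UMIs of Retnla and Mgl2, lay 65 Tgfbr2-KO and 33 control members, and just outside, with 8 or 9, lay 60 Tgfbr2-KO and 72 control cells that met every other limit. A further 200 Tgfbr2-KO and 46 control cells met the limit of Retnla and Mgl2 but had 8 or more UMIs of the Lyve1 genes, and are called Lyve1 neighbours. Another 26 Tgfbr2-KO and 46 control cells met it but had 3 or more UMIs of Cd209a and Ccl17, and are called Cd209a neighbours. C1q was below its limit in the remaining 6 Tgfbr2-KO and 1 control cells.

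Retnla was therefore not particular to the members. Of all Retnla UMIs of the Tgfbr2-KO pool, 50.8% lay in members and 48.2% in Lyve1 neighbours, and of those of the control pool 71.4% lay in members and 23.5% in Lyve1 neighbours. In UPM, Retnla stood at 2898 UPM in Tgfbr2-KO members and 6098 UPM in Tgfbr2-KO Lyve1 neighbours. In the control pool it stood at 1567 UPM in members and 1224 UPM in Lyve1 neighbours. Members held 56.4% of the Mgl2 UMIs of the Tgfbr2-KO pool and 30.6% of those of the control pool.

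Macrophage genes that the rule did not use were present in members of both pools. Csf1r, the receptor for the macrophage growth factor CSF1, had 397 UPM in Tgfbr2-KO members and 511 UPM in control members, and Fcgr1, which encodes the sort marker CD64, had 150 UPM in Tgfbr2-KO members and 113 UPM in control members. The class II invariant chain Cd74 reached 27404 UPM in Tgfbr2-KO members and 29840 UPM in control members.

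Several defining markers of other cell types were at or near 0 in the members. Cd79a of B cells had no UMI in members of either pool. The T cell gene Cd3e had 3 UMIs over all Tgfbr2-KO members and none in control members, Epcam of epithelium 2 and none, Marco of alveolar macrophages 1 and none, and Siglecf 6 and none. Summed over their lists, 11 eosinophil and mast cell markers reached 4.75 UPM in Tgfbr2-KO members and 2.14 UPM in control members, with 8 and 9 of the 11 at 0. The 15 alveolar macrophage markers summed to 1229 UPM in Tgfbr2-KO members and 1046 UPM in control members, against 988 and 1079 UPM in other C1q macrophages of the same pools, with 5 markers at 0 in Tgfbr2-KO members and 8 in control members. That list counts Mrc1, Pparg and Ear2 among its markers.

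Other summed lists were not near 0. The 18 dendritic cell markers summed to 718 UPM in Tgfbr2-KO members and 1096 UPM in control members, and the 15 markers of classical monocytes to 1044 and 964 UPM. The 10 neutrophil markers summed to 287 UPM in Tgfbr2-KO members and 138 UPM in control members, with Retnlg, Cxcr2 and Ly6g at 0 in both pools. In other C1q macrophages these 3 sums were 668, 1190 and 293 UPM in the Tgfbr2-KO pool and 795, 922 and 193 UPM in the control pool. The 9 B or plasma cell markers summed to 169 UPM in Tgfbr2-KO members and 116 UPM in control members, with 5 markers at 0 in each pool, and the 12 T or NK cell markers to 62.1 and 116 UPM, with 1 and 9 at 0. The part of such RNA in the results was not tested.

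Compared with all other kept cells, the members were set apart by few genes. The 1.5-fold limit was passed in the same direction in both pools by 18 of 1822 counted genes that were higher (0.988%) and 40 that were lower (2.2%). In comparisons made within both pools, a gene was counted when both sides of both pools together held at least 50 UMIs. It also needed at least 100 UPM on any side of either pool, so its levels in the other pool can lie lower. Between genotypes, the same minimums applied to the 2 groups compared. The median log2 ratio over all counted genes was -0.04 in the Tgfbr2-KO pool and -0.03 in the control pool. Of the 7 counted alternative activation genes, 3 were higher, namely Ear2 and the rule's own Mgl2 and Retnla, and none were lower. Set against the 3474 other cells with C1q, 18 of 1791 genes were higher (1.01%) and 34 lower (1.9%).

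Mucl1, a small secreted mucin-like protein, was among the genes with the highest ratios over other kept cells after the rule's genes. Mucl1 had 135 UPM in Tgfbr2-KO members against 27.2 UPM in other Tgfbr2-KO cells, and 115 UPM in control members against 1.68 UPM in other control cells. These levels rested on 31 Tgfbr2-KO and 4 control members with a UMI, so few cells carried the whole signal. Of the Mucl1 UMIs of the Tgfbr2-KO pool, 50.6% lay in members and 46.9% in Lyve1 neighbours. Of those of the control pool, 86.6% lay in members, none in Lyve1 neighbours and 13.4% in cells below the members' limit.

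Ear2 had 183 UPM in Tgfbr2-KO members against 33.2 UPM in other Tgfbr2-KO cells, and 154 UPM in control members against 58.3 UPM in other control cells. An Ear2 UMI was present in 25.98% of Tgfbr2-KO members and 24.1% of control members, against 5.24% and 8.38% of other C1q macrophages. The share stayed apart when every cell was thinned to 3000 UMIs, at 16.6% of Tgfbr2-KO members against 2.65% of other Tgfbr2-KO C1q macrophages, and 16.3% of control members against 5.51% of other control C1q macrophages. Monocyte-like cells also carried Ear2, in 18.2% of Tgfbr2-KO and 18.2% of control cells, so the gene is no marker of the members alone.

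Mmp12 was the 1 gene higher in both pools of 11 counted growth factor and matrix genes. Of 13 counted C-type lectins Clec4b1 and Mgl2 were higher while Clec4d and Cd209f were lower. The rule itself chose for Mgl2 and against Cd209f. Mmp12, the macrophage elastase, had 647 UPM in Tgfbr2-KO members against 303.3 UPM in other Tgfbr2-KO cells, and 1159 UPM in control members against 492 UPM in other control cells. The proprotein convertase Furin had 301.6 against 158 UPM in the Tgfbr2-KO pool and 465 against 282 UPM in the control pool, members first. For the C-type lectin Clec4b1 the levels were 282 against 109 UPM in the Tgfbr2-KO pool and 157 against 81.2 UPM in the control pool. Higher by the same rule were also the adhesion protein Flrt3, the signalling adaptor Dok2, the secreted Olfm1, the lysozyme Lyz1, the A20-binding protein Tnip3, the intracellular Fgf13 and the helicase Dhx40. Lyz1 UMIs of control members lay to 92.2% in 5 cells, and its excess in the control pool turned to a log2 ratio of -2.64 when members with fewer than 10 Mgl2 UMIs were left out.

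Lower in members than in all other kept cells were genes of monocytes, of the interferon response and of lipid-handling macrophages. The rule's minimum of C1q left monocyte-like cells among the other cells only. Those cells had 9216 UPM of the listed classical monocyte genes in the Tgfbr2-KO pool and 13898 UPM in the control pool. Their interferon response genes summed to 13953 and 11647 UPM. The rule itself thus chose against both lists. Plac8, a gene of recently arrived monocytes, had 137 UPM in Tgfbr2-KO members against 763 UPM in other Tgfbr2-KO cells, and 3.57 UPM in control members against 116 UPM in other control cells. The 3.57 UPM lies near the floor of 3 counts, 2.14 UPM in control members. Cxcl9, a chemokine induced by interferon-gamma, had 663 against 1720 UPM in the Tgfbr2-KO pool and 15.7 against 45.6 UPM in the control pool. Of the 13 counted interferon response genes, 6 were lower in members in both pools and 0 were higher, and of 6 counted genes of classical monocytes 3 were lower and 0 higher. Against other C1q macrophages, 2 of the 6 monocyte genes were lower (Plac8 and Ly6c2) and Ccr2 was higher, with a median log2 ratio of -0.60 in the Tgfbr2-KO pool and 0.09 in the control pool. In that comparison 4 of 13 counted interferon response genes were lower and 0 higher. Their median log2 ratio was -0.89 in the Tgfbr2-KO pool and -0.27 in the control pool, beside -1.03 and -0.56 against all other kept cells. Of the 16 counted lipid and phagolysosome genes, 4 were lower, namely Fabp5, Gpnmb, Apoe and Ctsl, and 0 were higher. Apoe, the lipid carrier, had 3392 UPM in Tgfbr2-KO members against 5573 UPM in other Tgfbr2-KO cells, and 4794 UPM in control members against 12210 UPM in other control cells. Also among the 12 lowest were Ly6c2, Ly6i, Ly6a, Iigp1, Ms4a4c, Cxcl13, Clec4d and the methionine sulfoxide reductase Msrb1.

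The chemokines of the monocyte chemoattractant family differed in direction. Ccl8, listed with Ccl7 as a marker of these cells, was lower in members: it had 760 UPM in Tgfbr2-KO members against 2075 UPM in other Tgfbr2-KO cells, and 81.3 UPM in control members against 360 UPM in other control cells. Members held 7.03% of the Ccl8 UMIs of the Tgfbr2-KO pool and 2.08% of those of the control pool. At 3000 UMIs per cell, a Ccl8 UMI was found in 23.96% of Tgfbr2-KO members against 38.4% of other Tgfbr2-KO C1q macrophages, and in 11.3% of control members against 21.3% of other control C1q macrophages. Monocyte-like cells, at full depth, had a Ccl8 UMI in 17.8% of Tgfbr2-KO and 9.09% of control cells.

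Ccl7 was higher in members in 1 pool: it had 1853 UPM in Tgfbr2-KO members against 1005 UPM in other Tgfbr2-KO cells, and 1823 UPM in control members against 1528 UPM in other control cells. The control ratio was under 1.5-fold. Ccl2, the main ligand of Ccr2, followed the same pattern, with 3588 against 1710 UPM in the Tgfbr2-KO pool and 3425 against 2589 UPM in the control pool. Ccl12 had 499 UPM in Tgfbr2-KO members and 442 UPM in control members, against 396 and 354 UPM in the other cells of the same pools.

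Few genes of interleukin-4 and interleukin-13 signalling had enough UMIs to be counted. Of the 11 listed, 3 were counted, and 0 of these were higher and 0 lower in both pools. This held against other kept cells and against other C1q macrophages. Il4ra had 57.2 UPM in Tgfbr2-KO members against 87.1 UPM in other Tgfbr2-KO C1q macrophages, and 82.0 UPM in control members against 92.5 UPM in other control C1q macrophages. Mrc1 was at 869 UPM in Tgfbr2-KO members and 778 UPM in control members, against 805 and 872 UPM in other C1q macrophages of the same pools. Ccl24, an eotaxin made by alternatively activated macrophages, had 13.1 UPM in Tgfbr2-KO members against 42.4 UPM in other Tgfbr2-KO C1q macrophages, and 8.56 UPM in control members against 36.2 UPM in other control C1q macrophages. The transcription factor Egr2 had 163 against 91.5 UPM in the Tgfbr2-KO pool and 102 against 88.8 UPM in the control pool, and Pparg, a lipid-sensing nuclear receptor, 108 against 68.6 UPM and 64.2 against 55.1 UPM. Egr2 and Pparg were thus past 1.5-fold in the Tgfbr2-KO pool only.

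**Figure D2:**
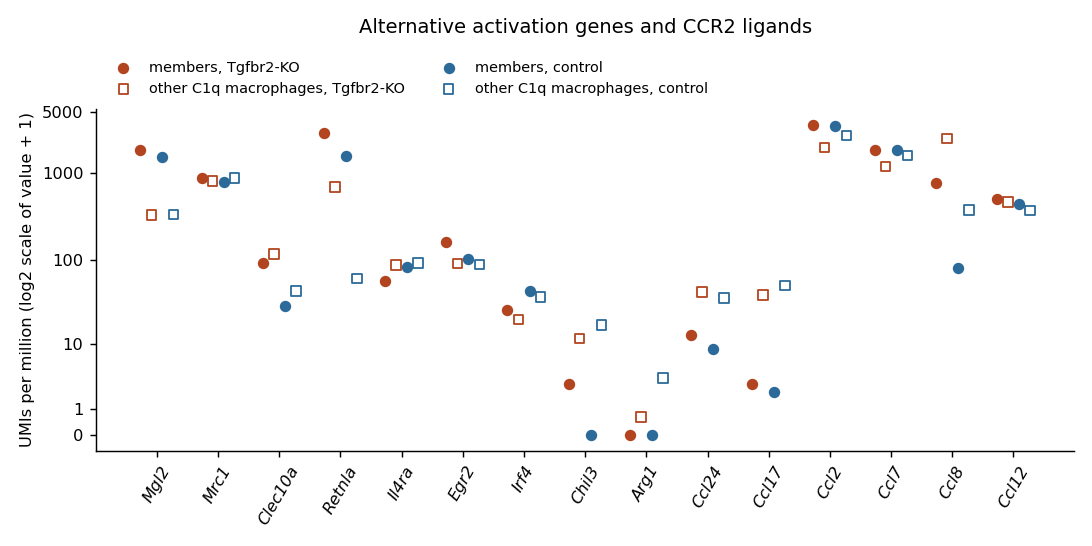
Levels of alternative activation genes and of the 4 CCR2 ligand genes in UPM (log2 scale of the value + 1), in members (filled circles) and other C1q macrophages (open squares) of the Tgfbr2-KO pool (red) and the control pool (blue). Mgl2 and Retnla, which chose the members, stand above the open squares, Mrc1 lies at 869 and 778 UPM in members beside 805 and 872 UPM in the other macrophages, and Ccl8 lies below them in both pools.

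Among the members, those that bore Retnla differed from those with Mgl2 alone. In this comparison, chosen after seeing the data, 47 of 1894 counted genes were higher (2.48%) and 60 lower (3.17%) in both pools. The 18 Retnla-bearing control members are few, and a gene's level there can rest on 1 or a handful of cells.

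Ear2 and Mucl1 went with Retnla. Ear2 had 537 UPM in Retnla-bearing Tgfbr2-KO members against 80.4 UPM in Tgfbr2-KO members with Mgl2 alone, and 535 UPM in Retnla-bearing control members against 87.9 UPM in control members with Mgl2 alone. Its UMIs were found in 65.2% of the Retnla-bearing Tgfbr2-KO members and 55.6% of the Retnla-bearing control members, against 15.9% and 19.5% of members with Mgl2 alone. Median depths were 12342 and 10095.5 UMIs in the Retnla-bearing members, against 9754 and 8696 UMIs with Mgl2 alone. These shares were not taken at equal depth. Mucl1 had 387 against 62.3 UPM in the Tgfbr2-KO pool; in the control pool all 161 of its UMIs lay in 4 Retnla-bearing members, and the 123 control members with Mgl2 alone had 0 of them.

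Some genes of matrix, chemokines and lipid handling were higher as well, and others were lower. In both pools, 3 of 15 counted lipid and phagolysosome genes were higher (Fabp5, Ctsd and Lpl) and Cd9 was lower, and of 12 counted other chemokines 3 were higher (Ccl5, Ccl9 and Ccl6) and Ccl3 and Ccl4 were lower. Of 12 counted growth factor and matrix genes Fn1 was higher and Col14a1 lower, and of 4 CCR2 ligands Ccl12 was lower and 0 were higher. Fibronectin (Fn1) had 447 UPM in Retnla-bearing Tgfbr2-KO members against 89.96 UPM with Mgl2 alone, and 1147 UPM in Retnla-bearing control members against 213 UPM with Mgl2 alone. The chemokine Ccl6 had 2069 against 759 UPM in the Tgfbr2-KO pool and 1513 against 377 UPM in the control pool. Lipoprotein lipase (Lpl) had 1128 against 493 UPM in the Tgfbr2-KO pool and 400 against 191 UPM in the control pool. Il1rn, the interleukin-1 receptor antagonist, had 672 against 326 UPM in the Tgfbr2-KO pool and 742 against 376 UPM in the control pool. Ccr2, the receptor of incoming monocytes, had 620 against 359 UPM in the Tgfbr2-KO pool and 709 against 382 UPM in the control pool.

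Genes of CD206-low interstitial macrophages were lower in the Retnla-bearing members. Of the 10 counted genes of that list, 4 were lower, namely Cd72, Cadm1, Col14a1 and H2-M2, and 1 was higher, Ccr2. H2-M2, a non-classical MHC class I gene, had 42.3 UPM in Retnla-bearing Tgfbr2-KO members against 137 UPM with Mgl2 alone, and 4.82 UPM in Retnla-bearing control members against 291 UPM with Mgl2 alone. The 4.82 UPM lies under the floor of 3 counts, which is 14.5 UPM in those control members. Cd207 (langerin, a lectin) had 1 UMI in the 89 Retnla-bearing Tgfbr2-KO members and 0 in the 18 control ones, against 28.9 and 78.7 UPM in members with Mgl2 alone. Lower were also Hpgds, which makes prostaglandin D, the chemokines Ccl3 and Ccl4, and the TGF-beta receptor gene Tgfbr1. MHC class II did not separate the subsets, with 0 of 7 counted genes past the limit either way.

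**Figure D3:**
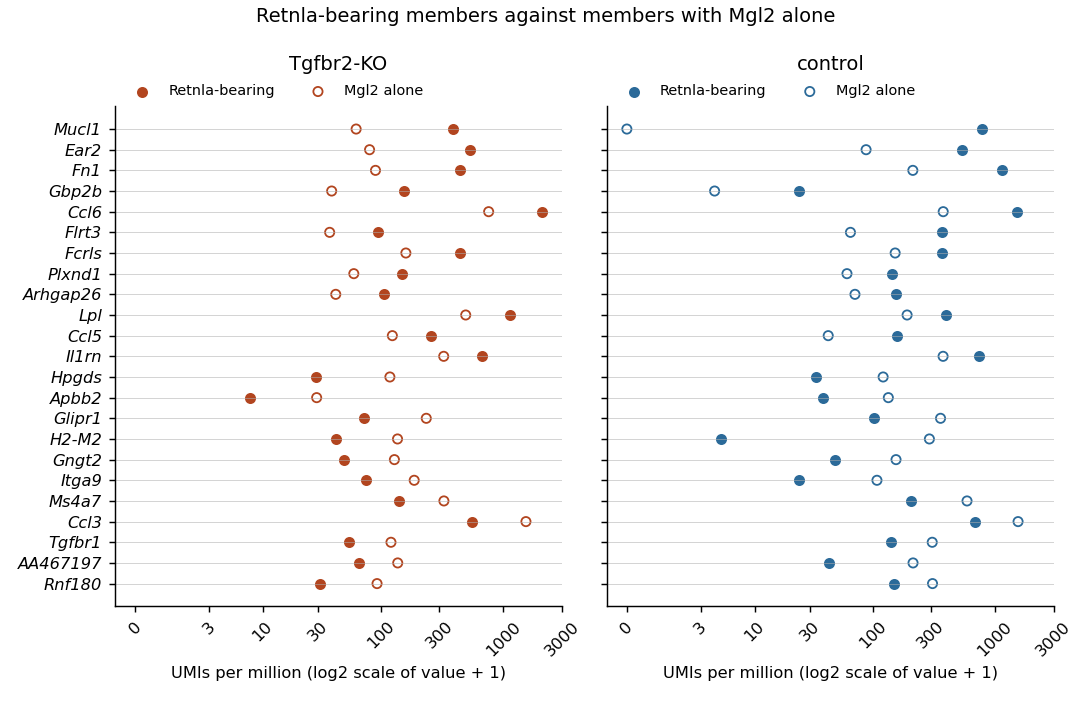
Levels in UPM (log2 scale of the value + 1) of genes from the top and the bottom by ratio of Retnla-bearing members (filled) over members with Mgl2 alone (open), in the Tgfbr2-KO pool (left) and the control pool (right). Ear2 lies at 537 against 80.4 UPM in the Tgfbr2-KO pool and at 535 against 87.9 UPM in the control pool, while H2-M2 at the lower end lies at 42.3 against 137 UPM and 4.82 against 291 UPM. The 4.82 UPM is under the floor of 3 counts, 14.5 UPM in Retnla-bearing control members.

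Against their Lyve1 neighbours, which met the same limit of Retnla and Mgl2, the members differed at many genes. Of 1977 counted genes, 112 were higher (5.67%) and 270 lower (13.7%) in both pools. All 16 counted genes of the Lyve1 Folr2 list were lower, 5 of which the rule used. Among those it did not use, F13a1, a coagulation factor subunit, had 171 UPM in Tgfbr2-KO members against 1371 UPM in Tgfbr2-KO Lyve1 neighbours, and 94.2 UPM in control members against 1545 UPM in control Lyve1 neighbours. Cbr2, a carbonyl reductase, had 69.6 against 552 UPM in the Tgfbr2-KO pool and 36.4 against 516 UPM in the control pool. Mrc1 was lower too, with 869 against 2647 UPM in the Tgfbr2-KO pool and 778 against 2445 UPM in the control pool.

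CD206-low interstitial macrophage genes pointed the other way. Of 10 counted, 8 were higher in members than in Lyve1 neighbours and 0 lower. Itgax (CD11c) had 120 UPM in Tgfbr2-KO members against 32.0 UPM in Tgfbr2-KO Lyve1 neighbours, and 170 UPM in control members against 38.9 UPM in control Lyve1 neighbours. Cadm1, an adhesion molecule, had 184 against 40.0 UPM in the Tgfbr2-KO pool and 173 against 32.2 UPM in the control pool. Both Ccl7 and Ccl8 were lower in members, Ccl7 with 1853 against 4013 UPM in the Tgfbr2-KO pool and 1823 against 3979 UPM in the control pool.

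Relative to the 72 Cd209a neighbours, 166 of 1878 counted genes were higher in members (8.84%) and 145 lower (7.72%) in both pools. The interstitial macrophage core was higher at 10 of 16 counted genes, of which the rule used C1qa, C1qb and C1qc, and lower at 0. All 4 CCR2 ligand genes were higher. Apoe had 3392 UPM in Tgfbr2-KO members against 260 UPM in Tgfbr2-KO Cd209a neighbours, and 4794 UPM in control members against 306 UPM in control Cd209a neighbours. Maf, a macrophage transcription factor, had 201 against 7.22 UPM in the Tgfbr2-KO pool and 74.9 against 5.70 UPM in the control pool. Both levels in the Cd209a neighbours lie at the floor of 3 counts. All 6 counted dendritic cell genes were lower, of which the rule used Cd209a and Ccl17. Ccl22, a chemokine of dendritic cells, had 19.0 against 221 UPM in the Tgfbr2-KO pool and 47.1 against 243 UPM in the control pool. Ear2 was lower in members than in these neighbours, at 183 against 426 UPM in the Tgfbr2-KO pool and 154 against 406 UPM in the control pool.

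Members were a larger part of the Tgfbr2-KO pool than of the control pool. They were 435 of 2674 Tgfbr2-KO cells, or 16.3% (interval 14.9 to 17.7%), and 141 of 1896 control cells, or 7.44% (6.30 to 8.71%). The ratio of the shares was 2.19 (1.81 to 2.66, counting error only). Without replicate pools, the spread between mice is not measured, and whether the shares differ beyond it was not tested.

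The size of that ratio moved with the limits and with the handling of depth. The rule counts raw UMIs, and the Tgfbr2-KO cells were deeper, but the part of depth in the ratio at each limit was not tested. With every cell thinned to 3000 UMIs and the limits scaled down, 14.8% of Tgfbr2-KO cells and 9.64% of control cells were members, a ratio of 1.54. That setting left out 83 Tgfbr2-KO and 80 control cells that were shallower. A limit of 5 UMIs of Retnla and Mgl2 gave 24.6% and 19.3%, a ratio of 1.28, and a limit of 20 UMIs gave 8.68% and 1.95%, a ratio of 4.45, with the Tgfbr2-KO pool first in each pair. By Retnla alone at 10 UMIs or more the shares were 2.95% and 0.844%. The Tgfbr2-KO share was the higher under each of the 13 other settings run.

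**Figure D4:**
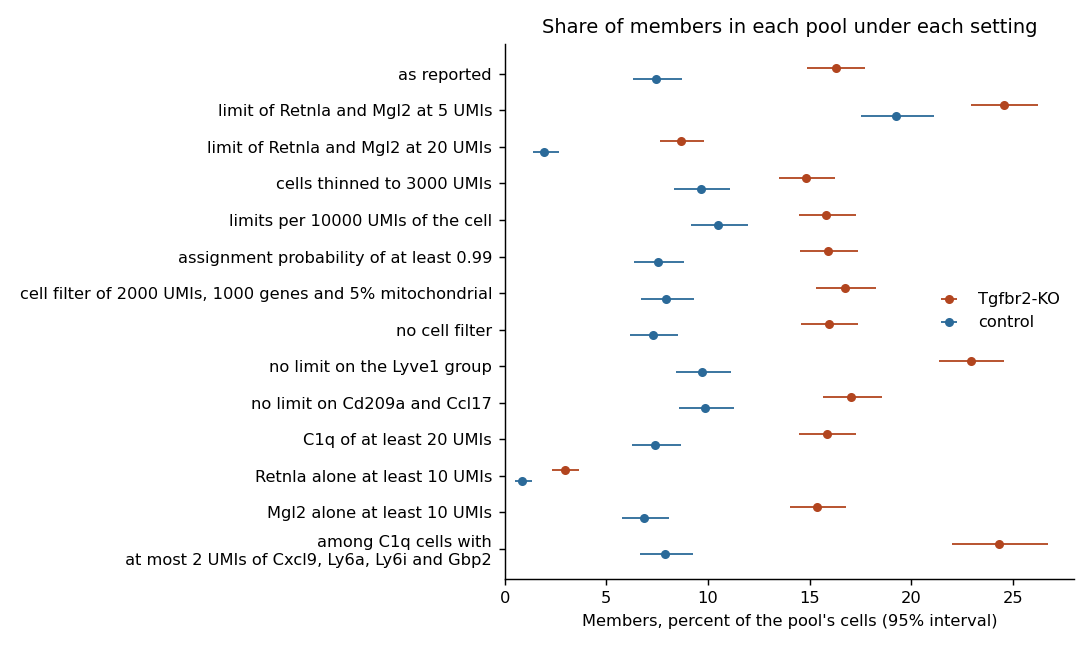
Members as a percent of the cells of the Tgfbr2-KO pool (red) and the control pool (blue) under the rule as reported and 13 other settings, with 95% Clopper-Pearson intervals. The red point lies right of the blue point in every row, from 24.6% against 19.3% at a limit of 5 UMIs to 8.68% against 1.95% at a limit of 20.

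Interferon genes differed between the pools beside this share. Of all cells with C1q and at most 2 UMIs of Cxcl9, Ly6a, Ly6i and Gbp2 together, members were 24.3% in the Tgfbr2-KO pool and 7.88% in the control pool. Over 2 UMIs of those genes were found in 114 of 435 Tgfbr2-KO members and 5 of 141 control members. The part of interferon genes in the share was not tested.

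Between genotypes, the members' transcripts differed in both directions. In Tgfbr2-KO members 124 of 1642 genes passed the limit upwards (7.55%) and 130 downwards (7.92%), and the median log2 ratio was 0.05. Scaling by trimmed means (TMM) moved all log2 ratios down by 0.11, and then 98 genes were higher and 177 lower. In other C1q macrophages, 181 of 1719 counted genes were higher in the Tgfbr2-KO pool (10.5%) and 149 lower (8.67%).

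Interferon response genes had the highest median ratio of the lists. All 8 counted genes of that list were higher in Tgfbr2-KO members, with a median log2 ratio of 2.31. In other C1q macrophages all 13 counted genes were higher, with a median of 3.24, so the difference was not particular to members. Ly6a, an interferon-induced surface protein, had 208 UPM in Tgfbr2-KO members and 2.85 UPM in control members, a ratio of 72.9 (28.4 to 268). The 2.85 UPM lies near the floor of 3 counts, 2.14 UPM in control members, so the size of the ratio is uncertain. Cxcl9 had 663 UPM in 113 Tgfbr2-KO cells with a UMI and 15.7 UPM in 8 control cells with a UMI, a ratio of 42.3 (27.9 to 67.5). The guanylate-binding protein Gbp2 had 163 UPM in Tgfbr2-KO members and 14.98 UPM in control members, and the transcription factor Irf1 had 176 and 46.4 UPM. Cxcl9 was found in a minority of cells: 25.98% of Tgfbr2-KO members and 5.67% of control members had a Cxcl9 UMI. In the members with at most 2 UMIs of the 4 interferon genes, 321 Tgfbr2-KO and 136 control cells, the log2 ratio of Irf1 was 1.67, where it was 1.92 over all members. In those cells, chosen for few UMIs of 4 such genes, 4 genes of the list were counted and 2 of them were higher (Ifitm3 and Irf1), with a median log2 ratio of 0.99.

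Other genes among the 12 highest were not all interferon genes. Ccl8 had 760 UPM in Tgfbr2-KO members and 81.3 UPM in control members, a ratio of 9.35 (7.76 to 11.4), and kept a log2 ratio of 2.45 in members with few interferon UMIs. Complement C3 had 220 UPM in Tgfbr2-KO members and 30.7 UPM in control members, and the IgG receptor Fcgr4 had 230 and 41.4 UPM. Lyz1 had 1449 UPM in Tgfbr2-KO members and 229 UPM in control members, where 5 cells held 92.2% of its UMIs. The neighbouring lysozyme gene Lyz2, whose locus carries the Cre in LyzM-Cre donors, had 5627 UPM in Tgfbr2-KO members and 12970 UPM in control members. These near-identical genes can share reads, so the split between them is uncertain. Fabp5, a fatty acid carrier, had 354 UPM in Tgfbr2-KO members and 75.6 UPM in control members, and Plac8 had 137 and 3.57 UPM. The 3.57 UPM lies near the floor of 3 counts, 2.14 UPM in control members. For Ccl8, C3, Fcgr4 and Plac8, members with few interferon UMIs gave the lowest log2 ratio of any setting. It was 1.17 for C3, 1.91 for Fcgr4 and 0.61 for Plac8. The part of interferon-high cells in these differences was not tested.

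Of the 24 genes named for this comparison, Gdf15, a stress-induced cytokine of the TGF-beta superfamily, was the exception that lay within 1.5-fold in other C1q macrophages. It had 500 UPM in Tgfbr2-KO members and 119 UPM in control members, a ratio of 4.199 (3.59 to 4.94), while other C1q macrophages had 241 UPM in the Tgfbr2-KO pool and 242 UPM in the control pool. A UMI was present in 32.4% of Tgfbr2-KO and 17.0% of control members, in 24.96% and 24.1% of other C1q macrophages, and in 6.48% and 0 of the monocyte-like cells, Tgfbr2-KO first. In control members 5 cells held 73.1% of the Gdf15 UMIs. Lpl, Maf and the collagenase Mmp13 had a like pattern: their log2 ratios were 1.52, 1.42 and 1.15 in members, against 0.29, 0.17 and -0.38 in other C1q macrophages. These differences of differences were not tested.

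Over all members, TGF-beta target genes lay below or within the 1.5-fold limit. Of 16 counted, 7 were lower in Tgfbr2-KO members and 0 higher, with a median log2 ratio of -0.46. Pmepa1, which restrains TGF-beta signalling, had 46.9 UPM in Tgfbr2-KO members and 143 UPM in control members, a 3.04-fold difference (2.51 to 3.68). Ldlrad4, a further inhibitor of the pathway, had 108 and 315 UPM, the integrin subunit Itgb5 49.2 and 140 UPM, and the co-repressor Skil 247 and 554 UPM, Tgfbr2-KO members first. The receptor Tgfbr1 had 106 UPM in Tgfbr2-KO members and 282 UPM in control members. In members with few interferon UMIs, 9 of 17 counted genes of the list were lower and 1, Nrros, was higher, beside 137 lower and 91 higher of all 1593 genes counted there.

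Several inflammatory cytokines were lower as well. Of 13 counted inflammatory genes, 6 were lower in Tgfbr2-KO members and 0 higher, with a median log2 ratio of -0.41. Il1b, the interleukin-1 precursor, had 2803 UPM in Tgfbr2-KO members and 4696 UPM in control members, Il1a 128 and 332 UPM, and Tnf 379 and 607 UPM. Of 15 counted lipid and phagolysosome genes, 3 were lower (Abca1, Cd9 and Trem2) and Fabp5 and Lpl were higher, with a median log2 ratio of 0.14. The lipid receptor Trem2 had 70.7 UPM in Tgfbr2-KO members and 312 UPM in control members, a 4.41-fold difference (3.83 to 5.08), and the phagocytic integrin subunit Itgav had 124 and 342 UPM. Podoplanin (Pdpn), a membrane glycoprotein, showed the widest lower value, with 17.3 UPM in Tgfbr2-KO members and 139 UPM in control members, an 8.04-fold difference (6.24 to 10.4). Of 10 counted CD206-low interstitial macrophage genes, 5 were lower and 0 higher, with H2-M2 at 115 UPM in Tgfbr2-KO members and 248 UPM in control members. Others among the 12 lowest were Apbb2, Rgcc, Fgf13, Atp2b4, Rnf180, B4galt1 and Rcan1.

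Antigen presentation genes lay within the 1.5-fold limit, as did the rule's own Mgl2 over all members. None of 7 counted MHC class II genes passed the limit, and H2-Ab1 had 10758 UPM in Tgfbr2-KO members and 11013 UPM in control members. Mgl2 had 1827 UPM in Tgfbr2-KO members and 1510 UPM in control members, a log2 ratio of 0.27. Retnla had 2898 and 1567 UPM, a log2 ratio of 0.89, beside a share of Retnla-bearing cells of 20.5% and 12.8%. The rule chose members of both pools by their UMIs of Mgl2 and Retnla, so the ratios of both genes are only a description. In members with few interferon UMIs, both Mgl2 and Retnla were past 1.5-fold higher in the Tgfbr2-KO pool. Of the 10 counted C-type lectins, Clec4a1, Clec4a3 and Clec4b1 were higher and Clec4d lower in Tgfbr2-KO members.

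Most genes past the limit in members were also past it in other C1q macrophages. Of 1570 genes counted in both, 115 were higher in Tgfbr2-KO members and 138 in the other Tgfbr2-KO macrophages, and 83 were in both groups. Lower were 121 genes in Tgfbr2-KO members and 127 in the other Tgfbr2-KO macrophages, with 80 in both groups, and 0 genes passed the limit in opposite directions. Cells of the same pool share their mice, library and hashtag, so the overlap is not independent evidence.

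**Figure D5:**
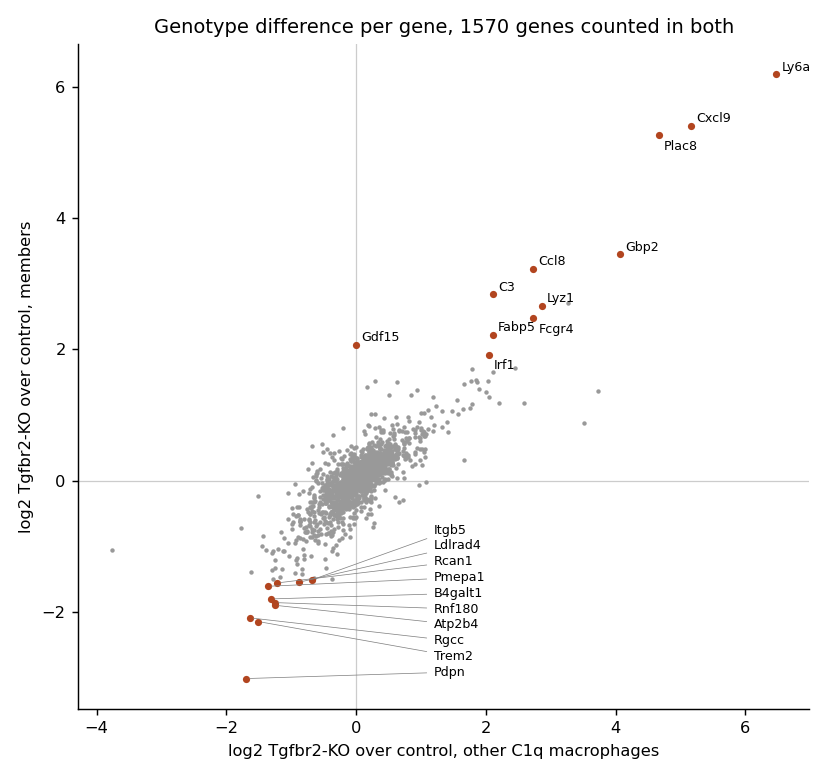
Log2 ratio of Tgfbr2-KO over control for each of 1570 genes in members (vertical) and other C1q macrophages (horizontal), with named red points for genes among the 12 highest and 12 lowest in members. Ly6a, Cxcl9 and Plac8 lie at the upper right, Pdpn at the lower left, and Gdf15 at 2.07 in members and near 0 in other macrophages.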

How the data were processed

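The deposited matrix holds the count of UMIs per gene or hashtag and barcode as whole numbers, with no normalization, for 22597 genes and 1172636 barcodes. Cell Ranger 8.0.0 is given per the file headers, and Cell Ranger 8.0, Seurat 5.1.0 and GRCm38 are named per the submitters' processing notes; an annotation version is not given in the sources used. The deposited hashtag table gives, per the file headers, the fraction of posterior probability of each assignment state for 4887 called cells. Its hashtag columns hold log10 values, which equal the log10 of the deposited hashtag count plus 1.

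Cells assigned to hashtag B0301 (control) or B0303 (Tgfbr2-KO), 4671 in all, were kept with at least 1000 UMIs, 500 genes and at most 10% mitochondrial UMIs, which removed 101. Doublets were handled by leaving out cells called as hashtag multiplets, and doublets within a pool remain. Raw UMIs were summed per pool and set of cells and divided by the sum of gene UMIs times 1000000. Intervals are 95% Clopper-Pearson for shares and conditional binomial for ratios, and a count of 0 is given a floor of 3 counts. With 1 pool per genotype no test was run, so a gene was called at 1.5-fold, and comparisons of members with other cells needed 1.5-fold in the same direction in both pools.

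The genes named are the 12 highest and 12 lowest counted genes of a comparison, without the rule's, mitochondrial, ribosomal and sex-linked genes, the genes of the rule, the listed markers, and from each gene list those with the most UMIs or a defining role; the comparison within members, Gdf15, Lpl, Maf and Mmp13 were singled out after their values were seen. Some genes that meet the rule are not reported here. The members and gene lists were chosen with earlier results of these data known. Counting and calling were checked on simulated counts. Python 3.11.15, numpy 2.4.6, scipy 1.17.1, pandas 2.3.3 and matplotlib 3.10.9 were used. Alternatives were other limits and cell filters, thinning to 3000 UMIs, TMM scaling, other gene minimums, the mean over cells and subtraction of free RNA.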

Additional observations from a re-analysis of the deposited data

Results flagged for a closer look

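Among 1442 genes that met the minimums in each pool taken by itself, 3 went in opposite directions past 1.5-fold when members were set against other kept cells of their pool. These differences between the pools were not tested.

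Fn1, which encodes fibronectin, had a log2 ratio of members over other kept cells of 1.42 in the Tgfbr2-KO pool and -0.65 in the control pool. Its levels were 170 UPM in Tgfbr2-KO members against 63.6 UPM in other Tgfbr2-KO cells, and 351 UPM in control members against 551 UPM in other control cells. The 5 highest cells held 75.2% of the Fn1 UMIs of control members.

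Thbs1, which encodes thrombospondin, had log2 ratios of -0.63 in the Tgfbr2-KO pool and 0.65 in the control pool. It had 143 UPM in Tgfbr2-KO members against 220 UPM in other Tgfbr2-KO cells, and 115 UPM in control members against 73.1 UPM in other control cells, where 5 members held 87.6% of the UMIs.

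Gdf15 had log2 ratios of 1.16 in the Tgfbr2-KO pool and -0.97 in the control pool. It had 500 UPM in Tgfbr2-KO members against 224 UPM in other Tgfbr2-KO cells, and 119 UPM in control members against 233 UPM in other control cells, where 5 members held 73.1% of the UMIs.

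Cells outside the comparisons also met the members' limits. Of 95 hashtag multiplets that passed the cell filter, 20 did so (21.1%, interval 13.4 to 30.6%), and of 65 cells with no assignment 12 did so (18.5%, interval 9.92 to 30.03%), beside 16.3% of the Tgfbr2-KO pool, which lies inside both intervals, and 7.44% of the control pool. Multiplets had a median of 17264 UMIs and unassigned cells one of 6566 UMIs. Of 44 blank cells, 5 met the limits (11.4%).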

How the results depend on the processing

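The share of members was higher in the Tgfbr2-KO pool under all 13 other settings, but its ratio, 2.19 as reported, moved by more than its interval under 7. It was 1.28 with the limit of Retnla and Mgl2 at 5 UMIs, 4.45 at 20 UMIs, 1.54 with cells thinned to 3000 UMIs, 1.51 with limits per 10000 UMIs, 1.73 with no limit on Cd209a and Ccl17, 3.50 by Retnla alone, and 3.08 among C1q cells with few interferon UMIs, a setting chosen after seeing the data. Of the members by raw counts, 316 Tgfbr2-KO and 95 control cells were among the 384 and 175 members after thinning.

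The counts of genes depended on the minimum level and on which members entered. In Tgfbr2-KO over control members, 124 genes were higher and 130 lower as reported, 2433 and 1627 with no minimum count, 62 and 60 with a minimum of 200 UMIs and 200 UPM, and 318 and 349 in members with at least 10 Retnla UMIs. In members over other kept cells, 18 were higher and 40 lower as reported, 362 and 418 with no minimum, 11 and 21 with the stricter minimum, and 66 and 98 with at least 10 Retnla UMIs, of which the control pool has 16 cells.

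Of the genes named in Tgfbr2-KO over control, 23 of 24 stayed past 1.5-fold in every setting that gave a value, Lyz1 being the exception at a log2 ratio of 0.49 with at least 10 Retnla UMIs, and 0 turned. In members over other kept cells 15 of 24 did. There, log2 ratios turned to -0.79 for Mmp12 in the control pool, -2.60 for Fgf13 in the Tgfbr2-KO pool and 0.034 for Cxcl9 in the control pool with at least 10 Retnla UMIs, to -2.64 for Lyz1 in the control pool with at least 10 Mgl2 UMIs, and to 0.84 for Ms4a4c in the control pool against C1q cells alone; the cause was not tested. Subtracted free RNA was at most 7.82% of UMIs in Tgfbr2-KO members and 0.926% in control members. No value could be had for Ly6i and Ly6a in the control pool after that subtraction, nor for Ly6i, Ly6a and Iigp1 there with at least 10 Retnla UMIs. No paired analysis was possible because each genotype is 1 pool.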
